A study of Mus musculus with 3 samples.

Results

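The cells described here were CD4 T cells of the mouse liver that carried neither checkpoint genes nor killer-cell receptors beyond 1 molecule each, here called the other CD4 T cells. They were picked from single-cell RNA sequencing barcodes by their own transcripts, counted as unique molecular identifiers (UMIs), where each UMI stands for 1 captured transcript. A barcode was kept where at most 30% of its UMIs were mitochondrial and where it held at least 1 UMI of Cd3d, Cd3e, Cd3g or Trac and at least 1 UMI of Cd4. It was left out where it held more than 1 UMI over Pdcd1, Ctla4, Foxp3, Tnfsf4, Tnfrsf4 and Havcr2 together, more than 1 UMI over Klrb1b, Klrb1c, Klrc1, Klrc2 and Cd160 together, or any UMI of Cd8a, Cd8b1, Cd79a, Siglech or Lyz2. These rules were met by 228 of 36990 barcodes, namely 115 in the CON library, 74 in the HFD library and 39 in the CCL4 library.

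All 3 libraries came from wild-type male C57BL/6 mice (C57BL/6J in the paper) aged 8 weeks at the start, and each library pooled the liver cells of 2 mice. CON mice were left untreated. HFD mice were fed for 4 months on a chow in which fat supplied 60% of the calories, a model of steatohepatitis. CCL4 mice ate normal chow for 3 months and then received 0.1 mL of a 10% carbon tetrachloride solution into the peritoneum 2 times per week for 4 weeks, a model of fibrosis. In every library, hepatocytes and nonparenchymal cells were mixed 1:1 before sequencing, so that a share of barcodes is a share of that mixture and not of the liver. Each condition was a single library, and the mice within it cannot be told apart. The difference between 2 libraries therefore has no replicate check, no p-value is given for one, and every interval printed beside a level, share or ratio covers counting error only.

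CD4 T cells recognise peptides on MHC class II molecules and direct other immune cells through cytokines and surface ligands. Before they meet antigen they circulate between blood and lymphoid organs, guided by receptors such as Ccr7, and hold a program kept by transcription factors such as Lef1 and Tcf7. After activation they switch to effector or memory states, which differ in the cytokines and chemokines they release, and some settle in tissues such as the liver. Regulatory, follicular and cytokine-defined helper states are branches of the same lineage, and the genes used to tell them apart overlap between branches.

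The 115 CON members held 326049 UMIs in all, the 74 HFD members 170693 and the 39 CCL4 members 87840. The median member had 2134 UMIs in CON, 2229 in HFD and 2013 in CCL4. The deepest CON member had 21913 UMIs, against 3551 in HFD and 4129 in CCL4, and 8 CON members above 5000 UMIs held 26.0% of the UMIs of CON members. No doublet caller was run on the barcodes, and whether the deep CON barcodes were pairs of cells was not tested. The smallest barcode in each library's file had 1629 UMIs in CON, 1827 in HFD and 1671 in CCL4, so smaller cells were not measured. Some barcode sequences occurred in 2 libraries, 36 in CON and HFD, 49 in CON and CCL4, and 52 in HFD and CCL4. Of these, 1 was a member, in CON, and its counterpart in CCL4 was not.

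The label of a T cell was checked with 17 genes of the T cell receptor complex and its signalling that the rule did not use, such as Trbc2, Cd247, Lck, Zap70 and Themis. At least 1 UMI of these genes was found in 100% of the CON members, 98.6% of the HFD members and 89.7% of the CCL4 members. In B cells of the same libraries the shares were 35.9%, 29.5% and 33.2%, at median depths of 1960, 2567 and 1987.5 UMIs. Cd2 led the list in CON B cells, at 100 CPM, and how much of the B cell level was free RNA was not tested. After each cell was thinned to 1000 UMIs the expected shares were 95%, 84.3% and 73.2% in members, against 18.8%, 12.5% and 17.0% in B cells. The members thus stood above the B cell level of the T cell genes in each library, by the least in CCL4. There, 21 of 39 members rested on 1 single UMI of the CD3 genes and Trac, whereas 12 of 115 did so in CON and 16 of 74 in HFD.

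The values that chose the members are given as a description. Cd4 reached 506 CPM (UMIs scaled to a total of 1000000 over the summed members) in CON, 475 in HFD and 478 in CCL4, and 78, 68 and 36 members had exactly 1 Cd4 UMI. Cd3e stood at 466, 322 and 262 CPM, and Trac at 420, 439 and 239 CPM. Among the checkpoint genes, Ctla4 gave most of the single UMIs allowed, in 25 CON, 19 HFD and 5 CCL4 members, and Foxp3, the factor that defines regulatory T cells, had no UMI in any member. Just inside the checkpoint limit were 37 CON, 26 HFD and 10 CCL4 members with 1 UMI, and just outside it were 32, 17 and 3 CD4 barcodes with 2 UMIs. T cell barcodes with neither a Cd4 nor a Cd8 UMI numbered 992 in CON, 1281 in HFD and 1244 in CCL4, so cells of this kind whose Cd4 transcripts were missed stay uncounted.

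Hepatocyte transcripts were present in the members as in other cells. The 13 hepatocyte genes, with Alb and Fabp1 among them, made up a median of 3.56% of a CON member's UMIs, 13.2% of an HFD member's and 16.6% of a CCL4 member's. In CD8 T cells the medians were 2.92%, 13.0% and 16.8%. These genes were thus higher in HFD and CCL4 than in CON in both cell types. The CPM of a T cell gene is relative to a total that includes them, and CD8 T cells of the same library therefore serve below as the main comparator. Of the defining genes of other cells, Csf1r had no UMI in members of any library, and neither had C1qb, C1qc, Fcgr1, Flt3, Cd209a, Itgax, Col1a1, Col3a1 and Lrat. Other genes of the same lists were present. The 14 genes of monocytes, macrophages and granulocytes summed to 712 CPM in CON members, led by S100a9 at 304 CPM, and to 293 and 285 CPM in HFD and CCL4, led by Cst3, with at least 1 UMI in 49.6%, 41.9% and 43.6% of members. The 10 dendritic cell genes summed to 79.7, 475 and 455 CPM, led by Ly6d in CON and by Cd74 in the others. Their part in the comparisons below was not tested. Of 5 genes of gamma delta and invariant T cells, 2 had any UMI in each library, at a summed 21.5, 17.6 and 45.5 CPM.

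The share of other CD4 T cells was highest in CON and lowest in CCL4. They made up 1.03% of kept barcodes in CON (exact binomial 95% interval 0.848 to 1.23, 115 of 11207), 0.570% in HFD (0.448 to 0.715, 74 of 12983) and 0.306% in CCL4 (0.217 to 0.418, 39 of 12761). The 3 intervals did not overlap. Counted against CD8 T cells, which were gated in the same way on Cd8a and Cd8b1, members were 18.8% of both cell types together in CON (15.8 to 22.1, 115 of 612), 14.7% in HFD (11.7 to 18.0, 74 of 505) and 7.10% in CCL4 (5.10 to 9.58, 39 of 549). On this measure the CON and HFD intervals overlapped, and the CCL4 interval lay below both. The checkpoint-positive CD4 T cells, with 2 or more checkpoint UMIs, were 45.8%, 29.5% and 13.3% of CD4 T cells of both kinds, so that the members were the larger part of the CD4 gate in each library. Members with 2 or more Cd4 UMIs numbered 37 of 115 in CON, 6 of 74 in HFD and 3 of 39 in CCL4. The limit of 1 Cd4 UMI makes every count depend on capture, and the part of capture in the shares was not tested.

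**Figure D1:**
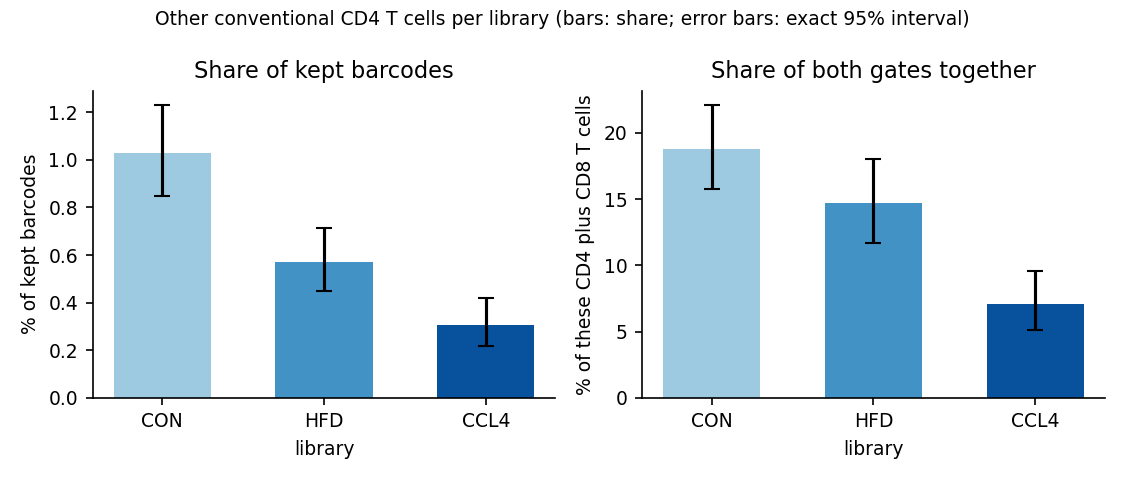
Share of other conventional CD4 T cells among kept barcodes (left, %) and among these cells plus CD8 T cells (right, %) in the CON, HFD and CCL4 libraries, with bars for the share and error bars for the exact binomial 95% interval. The bars fall from 1.03% to 0.306% on the left and from 18.8% to 7.10% on the right.

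To ask how the members differed from CD8 T cells, UMIs were summed over the cells of each type in each library and fitted with edgeR's quasi-likelihood test with library as a block. Genes used by any cell definition were left out. Members had 22 of 5569 genes higher than CD8 T cells (0.395%) and 49 lower (0.880%) at a Benjamini-Hochberg adjusted p under 0.05, so that any count below is read against these small shares. The median gene lay at -0.12 on the log2 scale. With another scaling, relative log expression in place of trimmed means, the median was -0.001 and the split was 27 higher and 27 lower. DESeq2 called 10 higher and 5 lower, so the excess of lower genes depended on the method.

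Maf, Icos and Tnfsf8, from 3 different helper lists, Ly6a, from the interferon-stimulated list, and the less studied Tmem64 and Trat1 were higher in members in all 3 libraries, and 7 of 14 tested cytotoxic genes were lower. Maf, a transcription factor of several helper T cell states, stood at 693 CPM in CON members, 428 in HFD and 364 in CCL4, against 81.2, 68.9 and 136 CPM in CD8 T cells. Members were above CD8 T cells in each library and the 2 sets of 3 levels did not overlap. The log2 fold change was 2.22 ± 0.25 (SE, 3 libraries, edgeR adjusted p = 7.51e-10). Icos, a costimulatory receptor that follicular helper T cells rely on, was at 202, 293 and 194 CPM in members and 88.0, 57.5 and 59.8 CPM in CD8 T cells. Its sets of levels did not overlap either, at a log2 fold change of 1.5 ± 0.24 (edgeR adjusted p = 1.64e-05).

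Among ligands of helper cells, Tnfsf8, the ligand of CD30, was at 49.1, 199 and 114 CPM in members and at 29.8, 23.9 and 16.5 CPM in CD8 T cells. The lowest member level, in CON, was above the highest CD8 level, and the fold change was 1.94 ± 0.36 on the log2 scale (edgeR adjusted p = 0.000335). The call was lost without the HFD library (adjusted p = 0.216) and without the CCL4 library (adjusted p = 0.101). Cd40lg, the ligand by which helper cells license B cells and macrophages, was at 42.9, 0 and 34.2 CPM in members and 7.44, 0.958 and 2.60 CPM in CD8 T cells. Members were above CD8 T cells in CON and CCL4, where the CCL4 level rested on 3 UMIs, and none of the 74 HFD members had a UMI of it (edgeR adjusted p = 0.0238). These were 2 of the 7 tested genes of the helper cytokine and ligand list, and the other 5 did not pass the test in either direction.

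Genes that mark other helper branches were also higher, at lower levels. Of 2 tested genes of the type 2 helper list, both were higher: Gata3, the factor that sets type 2 helper cells, and Areg, a growth factor of tissue repair. Gata3 was at 95.1, 41.0 and 68.3 CPM in members and 36.5, 11.5 and 18.2 CPM in CD8 T cells, and the lowest member level was above the highest CD8 level by a small margin (log2 fold change 1.37 ± 0.34, edgeR adjusted p = 0.0206). The Gata3 call was lost without the HFD library (adjusted p = 0.102), without the CCL4 library (0.0709) and with cells of at most 5000 UMIs (0.187). Areg was at 33.7, 52.7 and 22.8 CPM in members and 2.03, 8.62 and 1.73 CPM in CD8 T cells, which did not overlap (2.99 ± 0.53, edgeR adjusted p = 0.000136). The member values of Areg rest on 11, 9 and 2 UMIs, of which 7, 8 and 2 were in members with 1 checkpoint UMI. Members without a checkpoint UMI had Areg at 17.4, 8.92 and 0 CPM. The cytokine genes Il4, Il5 and Il13 were too low to be tested. Of 6 tested genes of the interleukin 17 helper list, Maf, Rora and Il17a were higher, but Il17a was found in HFD alone, with 13 of its 17 UMIs in 1 of 3 cells.

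Ikzf2, which encodes Helios and is high in regulatory T cells, was at 491 CPM in CON members, 82.0 in HFD and 102 in CCL4, against 85.9, 30.6 and 55.4 CPM in CD8 T cells. Members were above CD8 T cells within each library, though the HFD level lay below the CD8 level of CON. The log2 fold change was 1.77 ± 0.26 (edgeR adjusted p = 1.89e-06), and without the CON library it was 0.91 (adjusted p = 0.411). Capg was the other of 5 tested regulatory T cell genes that was higher (2.58 ± 0.58, edgeR adjusted p = 0.00594). With members restricted to those without any checkpoint or killer-receptor UMI, the calls of Ikzf2, Capg, Areg and Gata3 were lost (edgeR adjusted p of 0.189, 0.164, 0.531 and 0.731), whereas Maf (log2 fold change 1.87) and Tnfsf8 (1.61) stayed past the threshold at p of 9.68e-07 and 0.0460. Among members without a checkpoint UMI Ikzf2 was at 217, 44.6 and 46.7 CPM, lower than over all members in each library. For Capg and Gata3 a lost call alone does not tell a smaller difference from fewer cells.

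The cytotoxic list moved in the other direction, with 7 of its 14 tested genes lower in members, none higher and a median log2 fold change of -1.29 against -0.12 over all genes tested. With DESeq2 3 of these 7 stayed past the threshold, Gzma, Gzmb and Klrd1, and Klre1, Nkg7, Ctsw and Klrk1 did not (adjusted p of 0.412, 0.0729, 0.134 and 0.664). Of the 7 genes not called by edgeR, Gzmk was above CD8 T cells in CON, at a ratio of 1.69 (95% interval 1.08 to 2.59), and below them in HFD, at 0.155 (0.0184 to 0.578). Gzma, a granule protease, was at 9.20, 64.4 and 11.4 CPM in members, on 3, 11 and 1 UMIs, and at 545, 932 and 156 CPM in CD8 T cells. Every member level was below every CD8 level, and the log2 fold change was -4.65 ± 0.36 (edgeR adjusted p = 6.64e-16). Klrd1, a receptor chain of natural killer cells, was at 18.4, 52.7 and 22.8 CPM against 241, 231 and 115 CPM, again without overlap (-3.11 ± 0.35, edgeR adjusted p = 7.51e-10). Gzmb, a second granule protease, was at 236, 141 and 11.4 CPM against 457, 407 and 165 CPM; here the levels of members and CD8 T cells overlapped between libraries but not within one (-1.54 ± 0.24, edgeR adjusted p = 1.44e-05). Klrd1 pairs with receptors of the Klrc family that both cell types were limited on, which the test of Klrd1 does not remove.

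Members also had less of Ly6c2, a surface antigen of memory CD8 T cells and monocytes, at 6.13, 23.4 and 45.5 CPM against 225, 270 and 198 CPM (-3.87 ± 0.36, edgeR adjusted p = 1.34e-12). The levels did not overlap. Fam241a, whose role in T cells is not established, was at 18.4, 11.7 and 0 CPM against 262, 82.4 and 80.6 CPM (-3.81 ± 0.40, edgeR adjusted p = 1.21e-10). Zeb2, a factor of terminal effector cells, was at 3.07, 29.3 and 11.4 CPM against 116, 96.7 and 13.9 CPM, so that only its CCL4 levels were close (-3.04 ± 0.49, edgeR adjusted p = 1.73e-05). Spp1 and Igkc, whose main sources are other cells, passed the test too. Igkc, the kappa light chain of antibodies, was lower in members (-1.85 ± 0.35, edgeR adjusted p = 0.000486), and Spp1 was higher in the fit. Levels of Igkc were 73.6, 305 and 125 CPM against 596, 315 and 375 CPM, close in HFD. The calls of Zeb2 and Igkc were lost with DESeq2. The ratio of Spp1 to CD8 T cells was 4.64 in CON and 3.63 in CCL4, with 74 of 87 CON UMIs and 18 of 21 CCL4 UMIs in 1 cell each, but 0.266 in HFD (0.0535 to 0.810).

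**Figure D2:**
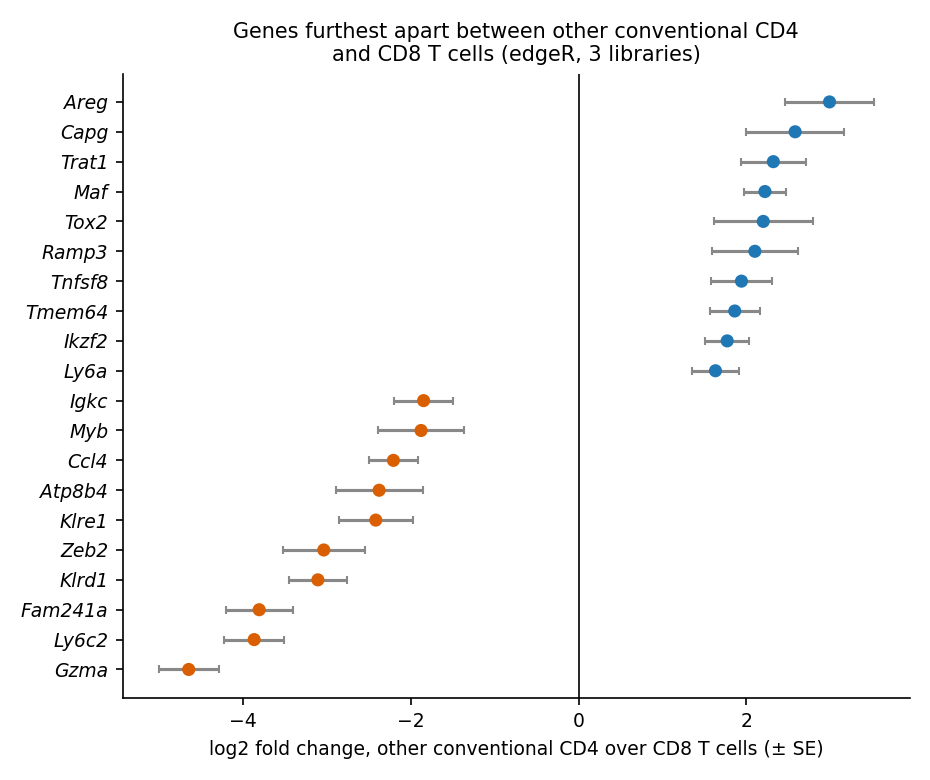
Log2 fold change (points) and its SE (bars) of the 10 genes furthest higher (blue) and the 10 furthest lower (orange) in other conventional CD4 T cells than in CD8 T cells, among genes past the edgeR threshold with one direction in all 3 libraries. Areg leads the higher genes at 2.99 and Gzma the lower ones at -4.65.

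Few genes of the remaining lists passed the test against CD8 T cells. Of 13 tested naive and central memory genes none was higher and Ccr7 and Dapl1 were lower, with a list median of -0.54. Ccr7, which guides T cells to lymph nodes, was at 107, 58.6 and 56.9 CPM in members and 350, 90.0 and 85.8 CPM in CD8 T cells, a difference within each library that overlapped between libraries (log2 fold change -1.43 ± 0.27, edgeR adjusted p = 0.000335). It was carried by CON, and the call was lost without that library (-0.79, edgeR adjusted p = 0.560). None of the 17 T cell receptor genes passed in either direction, nor did any of 13 cytokine receptors, 16 immediate-early genes, 10 heat shock genes, 8 cell cycle genes or 11 genes of glycolysis and fatty acid oxidation. For the cell cycle list this averaged over opposite differences, since its 12 genes summed to 1849 CPM (1705 to 2003) in members and 1187 (1132 to 1244) in CD8 T cells of CON, but to 486 (387 to 603) against 815 (761 to 872) in HFD and 535 (393 to 712) against 946 (891 to 1004) in CCL4. In CON, 93.0% of members and 88.1% of CD8 T cells had at least 1 UMI of these genes, but 38.3% and 48.7% had 3 or more. The higher CON sum of members was thus not seen by the share of cells with 3 or more. Among 15 effector and resident memory genes, the adhesion receptors Cd44 (0.95 ± 0.24, edgeR adjusted p = 0.0267) and Itgb1 (0.79 ± 0.22, edgeR adjusted p = 0.0476) were higher. Of 14 interferon-stimulated genes Ly6a alone was higher, at 123, 146 and 205 CPM against 25, 69.9 and 39.8 CPM (1.63 ± 0.28, edgeR adjusted p = 7.15e-05). Of 13 hepatocyte and 9 acute phase genes, none passed in this comparison.

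The second comparison asked how members differed from checkpoint-positive CD4 T cells, which carried 2 or more UMIs of the checkpoint genes and numbered 97 in CON, 31 in HFD and 6 in CCL4. In the same edgeR fit, 74 of 5569 genes were higher in members (1.33%) and 32 lower (0.575%). With the other scaling the split was 55 higher and 46 lower. The rule split these cell types by the checkpoint genes themselves, so that genes expressed along with them were bound to differ, and the CCL4 sum of the comparator rested on 14272 UMIs.

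Naive and central memory genes were higher in members, 5 of 13 tested, with none lower and a list median of 1.33 against 0.09 over all genes. Klf2, a factor that keeps T cells quiescent and in circulation, was at 929, 668 and 421 CPM in members and 332, 301 and 350 CPM in checkpoint-positive cells. Every member level was above every level of the comparator, and the log2 fold change was 1.45 ± 0.23 (edgeR adjusted p = 3.00e-05). The CCL4 level of the comparator rested on few UMIs, since 3 of them gave 210 CPM. Il7r, the receptor of the survival cytokine interleukin 7, was at 457, 217 and 205 CPM against 151, 156 and 210 CPM, which overlapped in CCL4 (1.45 ± 0.31, edgeR adjusted p = 0.00326). Lef1 was at 301, 23.4 and 68.3 CPM against 107, 24.0 and 0 CPM, higher in CON and level in HFD (1.41 ± 0.34, edgeR adjusted p = 0.0114). In CCL4 neither Lef1 level reached the 210 CPM that 3 UMIs gave in the comparator, so they could not be ordered. Bach2 and Actn1 were the other members of the list that were higher.

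Cell cycle genes were lower in members than in checkpoint-positive cells, 6 of 8 tested, with none higher and a median of -1.70. Stmn1, a tubulin regulator of dividing cells, was at 110, 29.3 and 56.9 CPM in members and 309, 361 and 210 CPM in the comparator, and the 2 sets of levels did not overlap (log2 fold change -1.87 ± 0.33, edgeR adjusted p = 0.000291). Top2a, the topoisomerase of replicating chromosomes, was at 73.6, 23.4 and 11.4 CPM against 248, 204 and 210 CPM, also without overlap (-2.09 ± 0.36, edgeR adjusted p = 0.000268). For both genes the CCL4 level of the comparator, 210 CPM, stood for 3 UMIs. Mki67, Hmgb2, Mcm3 and Tubb5 were lower as well. The calcium-binding genes S100a4 (-1.40 ± 0.27, edgeR adjusted p = 0.000903) and S100a6 (-0.85 ± 0.24, edgeR adjusted p = 0.0393) were the 2 lower genes of the effector and resident memory list, and Ikzf2, Areg, Tox, Gzmk and Il17a were lower in other lists.

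Genes that set members apart from CD8 T cells were not all apart here. Maf was at 693, 428 and 364 CPM in members and did not pass the test against checkpoint-positive cells (-0.70 ± 0.25, edgeR adjusted p = 0.147), nor did Icos (-0.25 ± 0.27, edgeR adjusted p = 0.776). In CON, checkpoint-positive cells had Maf at 1527 CPM, above the 693 CPM of members, so the missing call does not show equal levels. Hepatocyte genes moved with this comparison, since 11 of 13 were higher in members, with a list median of 0.65, and so was the acute phase gene Hp (0.77 ± 0.18, edgeR adjusted p = 0.00884). Their part in the other calls was not tested. With cells of at most 5000 UMIs in every cell type, 24 genes passed in place of 106 and the calls of Alb and Hp were lost.

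**Figure D3:**
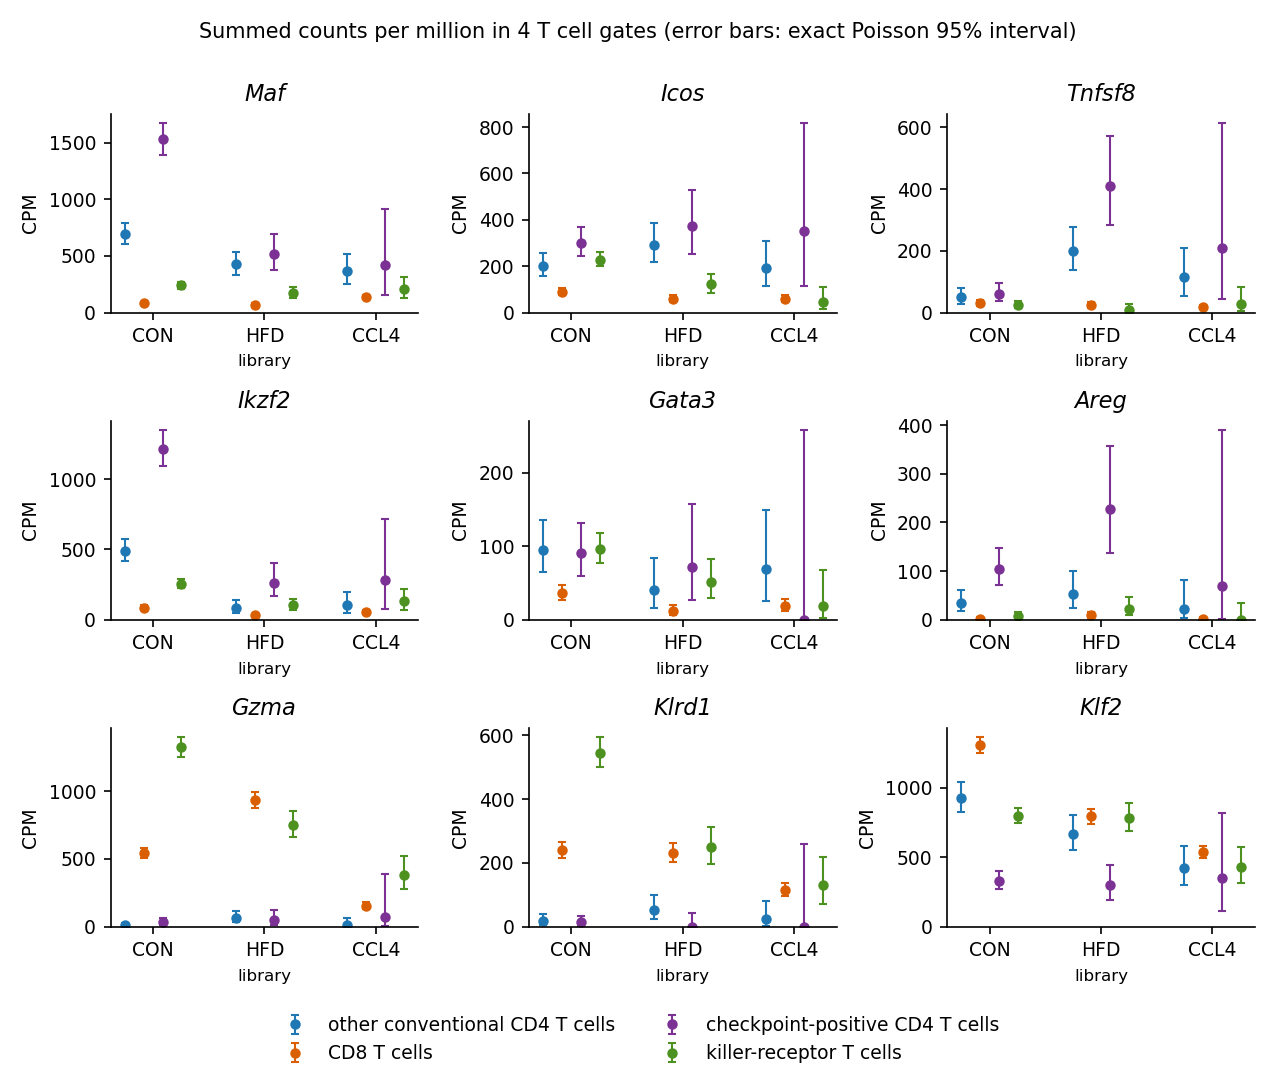
CPM over summed cells (points) of 9 genes in other conventional CD4 T cells, CD8 T cells, checkpoint-positive CD4 T cells and killer-receptor T cells of each library, with exact Poisson 95% intervals. Other conventional CD4 T cells were above CD8 T cells for Maf, Icos, Tnfsf8, Ikzf2, Gata3 and Areg in each library and below them for Gzma and Klrd1, and Klf2 was above its level in checkpoint-positive cells.

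The third comparison set members against killer-receptor T cells, the CD8-negative T cells with 2 or more UMIs of the Klrb1, Klrc and Cd160 genes; their Cd4 UMIs were not limited. In the edgeR fit 34 of 5569 genes were higher in members (0.611%) and 89 lower (1.60%). The comparator was picked for receptors that cytotoxic cells share, so the direction of the cytotoxic list was largely set by that choice. In it, 12 of 14 tested genes were lower in members, and the list median was -2.91 against -0.04 over all genes. Xcl1, a chemokine that attracts dendritic cells, had a log2 fold change of -3.48 ± 0.34 (edgeR adjusted p = 2.93e-12). Its call was not kept under every alternative that tested it, the fit without the library block aside.

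On the higher side, 4 of 13 naive and central memory genes passed, S1pr1, Ccr7, Dapl1 and Tcf7. None of these 4 kept its call under every alternative, leaving aside the fit without the library block. S1pr1, the receptor by which lymphocytes leave tissues, was at 331, 52.7 and 250 CPM in members and 76.4, 47.6 and 56.2 CPM in killer-receptor T cells, far apart in CON and CCL4 and close in HFD (log2 fold change 1.79 ± 0.27, edgeR adjusted p = 1.91e-06). Cd5, which dampens T cell receptor signals, was at 199, 117 and 56.9 CPM against 55.8, 31.7 and 0 CPM (1.83 ± 0.30, edgeR adjusted p = 1.54e-05). The Cd5 call was not kept under every alternative either. Trib2, a pseudokinase, was at 230, 135 and 45.5 CPM against 23.7, 6.34 and 9.37 CPM, which did not overlap (3.34 ± 0.36, edgeR adjusted p = 9.34e-11). Il2rb, the receptor chain that innate-like T cells share for interleukins 2 and 15, was lower in members, at 356, 264 and 182 CPM against 1198, 466 and 572 CPM (-1.46 ± 0.21, edgeR adjusted p = 4.41e-07). Of 10 heat shock genes, Hspa1a and Hspa1b were lower. Markers of other cell types were higher in members too, namely S100a8 and S100a9 of 4 tested monocyte and granulocyte genes, both at 0 in CCL4, and Spp1 of 2 tested endothelial, stellate and bile duct genes, and their part in the other calls was not tested.

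Ccl5, a chemokine of effector and memory T cells, was at 8582 CPM in CON members, 1635 in HFD and 524 in CCL4, whereas CD8 T cells had 5625, 7783 and 6323 CPM. Checkpoint-positive CD4 T cells had the same order of libraries as the members, at 11375, 2008 and 1191 CPM, so this order was not particular to the members. B cells had 554, 36.2 and 212 CPM, and how much of this was free RNA was not tested. By summed CPM, the members were above CD8 T cells in CON and below them in HFD and CCL4. The ratio of members to CD8 T cells was 1.53 in CON (exact conditional 95% interval 1.46 to 1.59), 0.210 in HFD (0.186 to 0.237) and 0.0828 in CCL4 (0.0606 to 0.111). These intervals treat each UMI as independent and leave out the spread between cells. The edgeR log2 fold change of -1.85 ± 0.32 (adjusted p = 0.000103) therefore averaged over opposite directions of the summed levels. It was lost without CCL4 (adjusted p = 0.323) and with DESeq2 (adjusted p = 0.752).

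Counted per cell, 49 of 115 CON members had 5 or more Ccl5 UMIs, 16 had 1 to 4 and 50 had none. The 49 cells held 99.0% of the Ccl5 UMIs of CON members, with up to 140 in 1 cell. Of the 74 HFD members 18 had 5 or more, 17 had 1 to 4 and 39 had none, and of the 39 CCL4 members 4, 8 and 27 did. At least 1 Ccl5 UMI was found in 56.5%, 47.3% and 30.8% of members and in 9.68%, 4.00% and 5.26% of B cells. Members were above the B cell share in each library, and no single cell with 1 to 4 UMIs can be told from that B cell level. The share with 5 or more was 42.6% in CON (exact binomial 95% interval 33.4 to 52.2), 24.3% in HFD (15.1 to 35.7) and 10.3% in CCL4 (2.87 to 24.2). In CD8 T cells it went the other way, from 51.1% in CON to 74.2% in HFD and 69.2% in CCL4. By this share members were not above CD8 T cells in CON either, and the CON intervals overlapped (46.6 to 55.6 in CD8 T cells). The median CON member had 1 Ccl5 UMI and the median CON CD8 T cell had 5. The higher summed level of CON members was thus not seen by share of cells. No HFD member exceeded 41 Ccl5 UMIs and no CCL4 member 11.

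**Figure D4:**
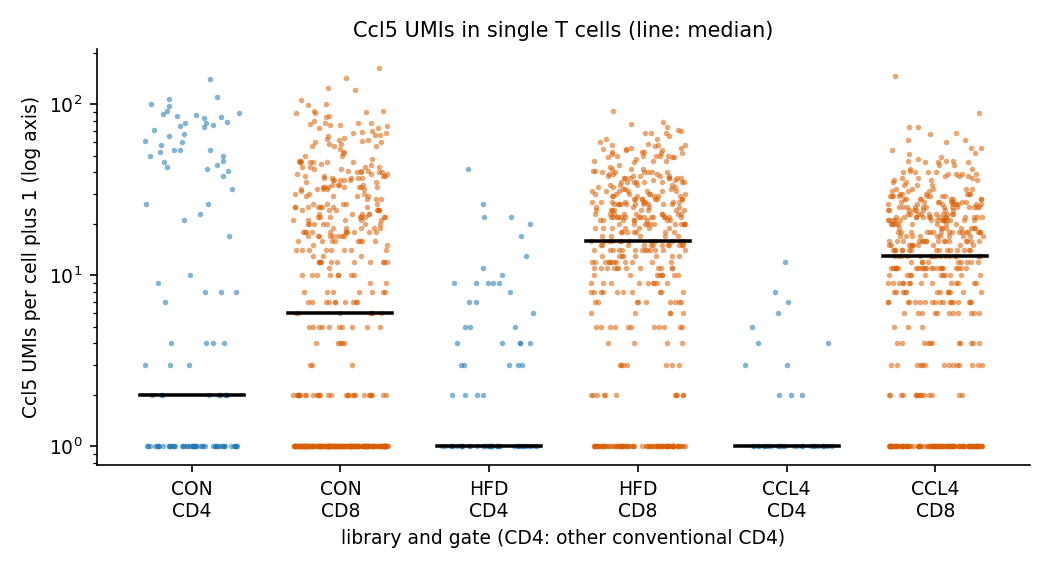
Ccl5 UMIs per cell plus 1 on a log axis, each point a cell, in other conventional CD4 T cells (blue) and CD8 T cells (orange) of the CON, HFD and CCL4 libraries, with the median as a line. CON members form a band at 0 UMIs and another mostly above 20 UMIs, while HFD and CCL4 members with the gene stay lower, at up to 41 and 11 UMIs.

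The Ccl5 pattern in CON went with other genes. This split of the members was chosen after the values were seen, and it is given as a description with no test. In the 49 CON members with 5 or more Ccl5 UMIs, Maf was at 1821 CPM and found in 46 cells, against 93.0 CPM and 9 of the 50 members without Ccl5. Ikzf2 was at 1386 CPM in 34 of the 49 cells, against 18.6 CPM in 2 of the 50. Eomes, a factor of cytotoxic and memory T cells, had UMIs in 23 of the 49 and in 0 of the 50. So did Gzmk, a granzyme of memory T cells, in 22 and 0, and the chemokine gene Ccl4, which is not the CCL4 treatment, in 27 and 0. These genes were not particular to the members. The 32 CON CD4 barcodes just outside the checkpoint limit, with 2 UMIs, had Maf at 1313 CPM in 28 cells. Their Ikzf2 was at 1044 CPM in 21 cells, and Eomes was found in 15, Gzmk in 9 and Ccl4 in 15.

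The CON members without Ccl5 were high in the naive program instead. Satb1, a chromatin organiser of T cell development, was at 918 CPM in them and found in 38 of 50 cells, against 145 CPM and 5 of 49 in the Ccl5 group. Lef1 was at 521 against 27.2 CPM (32 and 3 cells), Tcf7 at 409 against 54.4 CPM (34 and 3 cells) and Il7r at 601 against 81.6 CPM (35 and 4 cells). Ccr7 was found in 18 cells without Ccl5 and in none of the 49 with it.

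In HFD some of these genes divided along Ccl5 and others did not. Nkg7, a granule protein of cytotoxic cells, was found in 12 of 18 members with 5 or more Ccl5 UMIs and in 2 of 39 without, at 518 and 32.6 CPM, and in CON in 37 of 49 and 4 of 50. Tox was found in 4 of 18 and 0 of 39 HFD members. Maf was found in 8 of 18 members with 5 or more Ccl5 UMIs and in 17 of 39 without, at 565 and 381 CPM, and Ikzf2 in 2 and 5 cells. Ccl4 followed Ccl5 there too, in 7 of 18 against 2 of 39 cells, while Eomes and Gzmk were each found in 1 cell of either group. Of the naive genes, Satb1 was found in 8 of 39 HFD members without Ccl5 and in 4 of 18 with 5 or more UMIs, and Il7r in 12 and 6. Tcf7 (5 and 1 cells), Ccr7 (4 and 0) and Lef1 (2 and 0) were found in few HFD members. In CCL4 the group with 5 or more Ccl5 UMIs held 4 cells, too few to describe. Whether the CON pattern was missing from the other libraries or too rare to be sampled was not tested.

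**Figure D5:**
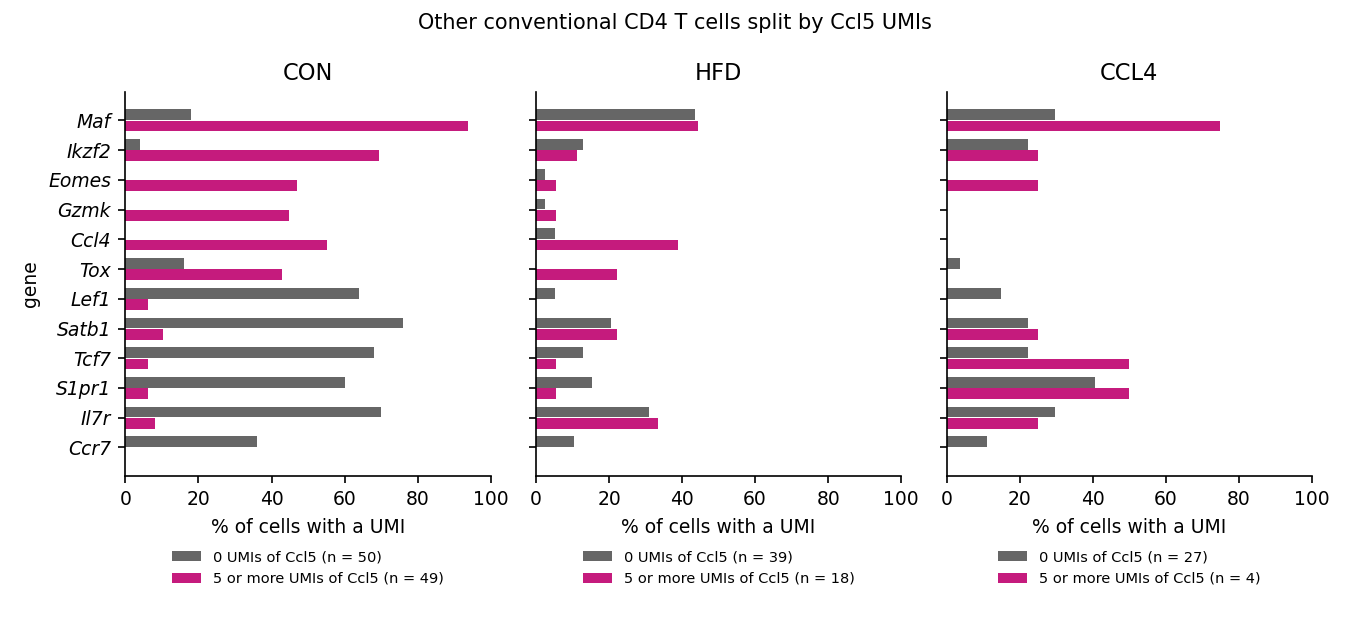
Share of cells (%) with at least 1 UMI of 12 genes in other conventional CD4 T cells with 0 (grey) and with 5 or more (magenta) Ccl5 UMIs, in the CON, HFD and CCL4 libraries. In CON the magenta bars are long for Maf to Tox (46 of 49 cells for Maf) and short for Lef1 to Ccr7, and the grey bars the reverse, while in HFD both bars of Maf are alike.

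Ccl5 in CON members differed with the checkpoint UMIs that the rule allowed. Of the 65 CON members with Ccl5, 33 had 1 checkpoint UMI and 32 had none, and the latter held 42.0% of the Ccl5 UMIs. CON members with 1 checkpoint UMI had Ccl5 at 16916 CPM and those with none at 5103 CPM, and CD4 barcodes just outside the limit, with 2 UMIs, had it at 14300 CPM. In HFD members with 1 checkpoint UMI had 2101 CPM, those with none 1391 CPM and the barcodes just outside 3516 CPM. In CCL4 the same 3 values were 593, 498 and 1758 CPM, and the intervals of the first 2 overlapped (324 to 996 and 341 to 703). Ccl5 was found in 33 of 37 CON members with 1 checkpoint UMI and 32 of 78 with none, but in 11 of 26 and 24 of 48 in HFD and in 3 of 10 and 9 of 29 in CCL4, so the order seen in CON was not seen by share of cells in the other libraries.

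Between libraries, many genes of the members differed past 2-fold. Of 3673 genes at 50 CPM or more in CON or HFD, 525 were at least 2-fold higher in HFD members (14.3%) and 700 at least 2-fold lower (19.1%), on the ratio of CPM plus 5. Of 3684 genes, 609 were that much higher in CCL4 than in CON members (16.5%) and 985 lower (26.7%). With at least 2 UMIs of the CD3 set per cell, 1025 were higher and 1018 lower in CCL4, and scaled outside mitochondrial, hepatocyte and acute phase genes 867 and 964, so the excess of lower genes depended on these choices. Of the genes past 2-fold in HFD members, 301 of the 525 higher and 314 of the 700 lower were past it in the same direction in CD8 T cells, and 168 and 431 in B cells. In CCL4 these were 338 of 609 and 489 of 985 in CD8 T cells, and 297 and 518 in B cells. In a separate count over all of these genes, 400 of 3673 had a ratio in HFD against CON that was more than 2-fold from the ratio in CD8 T cells, and 662 of 3684 did in CCL4 against CON.

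The lowest genes in HFD against CON were Lcn2, Mt2, Mt1, Saa3, Tifa, Saa2, Fbxl12, Retnlg, Gxylt1 and Kcnq1ot1, led by acute phase and metallothionein genes that hepatocytes and granulocytes make. Mt1, a metal-binding stress protein, was at 4880 CPM in CON members and 87.9 in HFD members, a ratio of CPM plus 5 of 0.0190, and the ratio was 0.0220 in CD8 T cells and 0.0231 in B cells. Saa2, a serum amyloid, was at 9413, 322 and 91.1 CPM in CON, HFD and CCL4. All 10 lowest genes were past 2-fold lower in CD8 T cells and in B cells as well. Of the 9 acute phase and metallothionein genes 8 were past 2-fold lower in HFD and 8 in CCL4, but 2 in each when divided by CD8 T cells.

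Of the 10 highest genes in HFD against CON, Acaa1b, Il17a, H2-Aa, Xcl1, Hamp2, Coq8a, Gstm5, Scd1, Vcam1 and Cyp2a5, 6 were past 2-fold in CD8 T cells and 5 in B cells. Scd1, the desaturase of fatty acid synthesis and a hepatocyte gene, was at 773 CPM in CON and 9614 in HFD, a ratio of 12.4, against 11.2 in CD8 T cells. Xcl1 had a ratio of 1.04 in CD8 T cells, and Il17a had no UMI in CD8 T cells of any library, so it has no ratio there. Xcl1 was at 6.13 CPM in CON members (2 UMIs) and 182 in HFD (31 UMIs). Il17a and H2-Aa rested on 3 HFD cells each. In CCL4 against CON the highest included Hamp2, Etnppl, H2-Aa, Aldh1b1, Gls2, Hsd17b6, Coq8a, Fcgr2b and Hcn3, and of the 10 highest 9 were past 2-fold in CD8 T cells and 7 in B cells. Hamp2, a hepatocyte relative of hepcidin, was at 3.07 CPM in CON members, on 1 UMI, and at 649 CPM in CCL4 members. The ratio of CPM was 212, with a counting interval of 36.5 to 8502, and that of CPM plus 5 was 81.1, against 125 in CD8 T cells and 103 in B cells.

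The lowest in CCL4 against CON were Hba-a1, Hbb-bs, Saa2, Ccl4, Mup17, Orm2, Hba-a2, Lcn2, S100a9 and Hbb-bt, of which 5 were past 2-fold lower in CD8 T cells and 6 in B cells. The haemoglobin genes among them rested on few CON cells, with 807 of 1301 Hbb-bs UMIs in 1. Ccl4 was at 478 CPM in CON members, 234 in HFD and 0 in CCL4, where 0 of 87840 UMIs were found, and in CD8 T cells its CCL4 to CON ratio was 1.04. With Ccl5, at a ratio of 0.0616 in members and 1.12 in CD8 T cells, it was among the genes that set the CCL4 members apart from the CD8 T cells of the same library.

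The 17 T cell receptor genes had a median log2 ratio of -0.93 in HFD against CON, and of 0.05 once divided by CD8 T cells, beside -0.02 for all genes. In CCL4 against CON the same medians were -1.27 and -0.47, beside -0.01. The naive and central memory list was at -1.31 and 0.05 in HFD and at -1.14 and 0.13 in CCL4. After division in CCL4, 3 of the 17 receptor genes were at least 2-fold lower and none that much higher, whereas 3 of 12 naive and central memory genes were at least 2-fold higher and none that much lower. Over all genes, 296 of 3684 were at least 2-fold higher after this division and 366 at least 2-fold lower. The cell cycle list stayed low after the division, at -1.24 in HFD and -1.61 in CCL4 over 6 genes, 4 of them past 2-fold lower in each. Over all genes, 214 of 3673 in HFD and 366 of 3684 in CCL4 were that much lower. Part of the CON counts came from single cells, with 94 of 337 Hmgb2 UMIs and 14 of 24 Birc5 UMIs in 1 cell.

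The cytotoxic list, divided by CD8 T cells, was at -0.32 in HFD over 10 genes, of which 3 were at least 2-fold higher and 2 at least 2-fold lower, and at -1.39 in CCL4 over 7, of which 4 were at least 2-fold lower and none that much higher. Over all genes after the same division, 186 of 3673 were at least 2-fold higher and 214 at least 2-fold lower in HFD. In CCL4 these were 296 and 366 of 3684. For Ikzf2 the ratio of members to CON was 0.176 in HFD and 0.217 in CCL4, and 0.392 and 0.665 in CD8 T cells. Tnfsf8 went the other way, with 3.78 in HFD (16 UMIs in CON, 34 in HFD) against 0.832 in CD8 T cells, and 2.20 in CCL4 on 10 UMIs against 0.617. Neither direction between CON and HFD was particular to the members. Checkpoint-positive CD4 T cells had Ikzf2 at 1218 CPM in CON and 264 in HFD. CD4 barcodes with 2 checkpoint UMIs had Tnfsf8 at 67.3 CPM in CON and 299 in HFD, on 6 and 12 UMIs. The interferon-stimulated, immediate-early and glycolysis lists had medians of 0.33, 0.09 and -0.24 in HFD and of 0.18, 0.14 and -0.29 in CCL4 after division by CD8 T cells.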

How the data were processed

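The authors prepared 10x Genomics 3′ libraries from 1:1 mixtures of hepatocytes and nonparenchymal cells and deposited, for each barcode, unnormalized UMI counts of every gene, which the file headers credit to Cell Ranger 7.2.0. The paper and the labels name different mouse genome builds, so no coordinates are given. The members and gene lists were chosen with earlier results of these data known. UMI counts were summed per cell type and library (12 sums over 4 T cell types). Genes were tested with edgeR 4.0.16 (R 4.3.3; quasi-likelihood test, TMM scaling, filterByExpr, library as a block, Benjamini-Hochberg adjustment at 0.05); DESeq2 1.42.0 was an alternative. The sums of a library share its mice, so the spread tested is that between 3 libraries. On simulated data the test recovered 77.1% of 4-fold and 96.8% of 8-fold changes against CD8 T cells among 5159 genes, with 6 false calls. The simulation used a fixed spread and the same expected profile in every library, so these rates need not hold in the real libraries. Between libraries, ratios of CPM plus 5 were taken over genes of at least 50 CPM. Named genes were those of the lists, the 10 furthest each way in a fit among genes with one direction in all 3 libraries, and the 10 highest and lowest ratios, without mitochondrial, ribosomal protein and predicted genes. Intervals were exact Clopper-Pearson, Poisson or conditional 95% intervals and cover counting error only. The limit of 5000 UMIs and the division by CD8 T cells were added after seeing the data. No doublet caller was run. Some genes, and a split of the members that used one of them, are not reported here.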

Additional observations from a re-analysis of the deposited data

Results flagged for a closer look

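For 11 of 153 T cell list genes compared, the ratio of CPM in the other CD4 T cells to CD8 T cells was above 1 in a library and below 1 in another, each with its 95% counting interval clear of 1. Over all 3988 genes compared, 43 did so. The intervals leave out the spread between cells and were not corrected for the number of genes. The difference between libraries was not tested, since each condition was 1 library.

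Ccl5 had ratios of 1.53 in CON, 0.210 in HFD and 0.0828 in CCL4. In the same library order, Eomes was at 1.76, 0.311 and 0.626, Gzmk at 1.69, 0.155 and 0 and Tox, a factor of chronically stimulated T cells, at 1.55, 0.556 and 0.146. The intervals of Eomes in CCL4 (0.126 to 1.91) and of Tox in HFD (0.216 to 1.20) spanned 1. Of genes of dividing cells, Stmn1 was at 1.83, 0.392 and 0.730, Hmgb2 at 2.11, 0.754 and 0.526 and Birc5 at 6.40, 0 and 0.375. The intervals of Stmn1 in CCL4 (0.231 to 1.77), Hmgb2 in HFD (0.533 to 1.04) and Birc5 in CCL4 (0.00925 to 2.23) spanned 1. Birc5 rested on 24, 0 and 1 UMIs in members. In CON, single cells held most of the Birc5 UMIs and part of the Hmgb2 UMIs of members, as given above.

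Among effector and memory genes, S100a6 was at 1.82 in CON, 1.25 in HFD and 0.462 in CCL4, and Lgals1, a galectin, at 1.31, 0.685 and 0.509. Ahnak, a large scaffold protein, was at 0.518, 1.03 and 1.96, and its HFD interval (0.681 to 1.51) spanned 1. The heat shock gene Hspa1a was at 0.684 in CON, 2.01 in HFD and 0 in CCL4, where members had 0 UMIs against 35 in CD8 T cells and the interval reached 1.46.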

How the results depend on the processing

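Of 57 alternative values for the counts and shares, 31 stayed within their limits and 26 moved. Against CD8 T cells, 71 genes passed in the reported edgeR fit, 15 with DESeq2 (10 higher and 5 lower, against 22 and 49), 35 with cells of at most 5000 UMIs and 24 to 34 when a library was left out. Against checkpoint-positive CD4 T cells 106 passed (74 higher and 32 lower, against 66 and 9 with DESeq2), 24 with cells of at most 5000 UMIs, 55 with at least 2 UMIs of the CD3 set and 50 to 62 when a library was left out. Against killer-receptor T cells 123 passed, 47 with DESeq2 and 26 (without CON) to 122 when a library was left out. Without the library block, which pairs the sums of the same mice, 0 genes passed in each of these 3 comparisons, with 70, 178 and 124 at an unadjusted p under 0.05; DESeq2 was run with the block only. Of the 36 genes named against CD8 T cells, 9 kept their call under every alternative that tested them other than the fit without the block: Fam241a, Gzma, Gzmb, Icos, Klrd1, Ly6a, Ly6c2, Maf and Tmem64. Of those named against checkpoint-positive cells 9 of 45 did (Actn1, Bach2, Gramd3, Il17a, Klf2, Mki67, S100a4, Stmn1 and Top2a). Against killer-receptor T cells 16 of 44 did (Fcer1g, Gzma, Gzmb, Hspa1b, Il2rb, Klrd1, Klrk1, Ly6c2, Ncr1, Nkg7, Prf1, Rgs1, Slamf7, Spry2, Trib2 and Tyrobp). Some kept calls met fewer alternatives than others. DESeq2 gave an adjusted p for 19 of the 45 genes against checkpoint-positive cells. The fit without CON tested 26 of the 36, 35 of the 45 and 28 of the 44 genes. Il17a was found in HFD members alone, as given above.

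Genes past 2-fold numbered 1225 for HFD against CON, 2312 from 20 CPM and 400 relative to CD8 T cells, and 1594, 3023 and 662 for CCL4 against CON. The split for CCL4 went from 609 higher and 985 lower to 1025 and 1018 with at least 2 UMIs of the CD3 set, and the median log2 ratio from -0.25 to 0.05. The share of members was 0.330% in CON, 0.0462% in HFD and 0.0235% in CCL4 with at least 2 Cd4 UMIs, 0.447% in HFD and 0.141% in CCL4 with at least 2 UMIs of the CD3 set, and 0.642% in CON and 0.308% in HFD without any checkpoint or killer-receptor UMI. The depth of the CCL4 members, 87840 UMIs, leaves a gene with no UMI there undetected up to 34.2 CPM, the level of 3 counts.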

Other observations

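CD4 barcodes with 2 checkpoint UMIs, just outside the limit, numbered 32 in CON, 17 in HFD and 3 in CCL4, and T cell barcodes with both a Cd4 and a Cd8 UMI numbered 13, 9 and 4. Homing genes of the members, compared with CD8 T cells, did not pass the edgeR test other than Ccr7 and Selplg, the ligand of selectins, which was lower (log2 fold change -0.92 ± 0.24, adjusted p = 0.0355). The chemokine receptors Cxcr6 (0.39 ± 0.33, adjusted p = 0.851) and Cxcr3 (0.64 ± 0.42, adjusted p = 0.762) of liver-resident and type 1 helper T cells did not pass, and neither did Igfbp4 (-0.02 ± 0.17, adjusted p = 0.990), whose level of 543, 674 and 683 CPM in members stood beside 405, 527 and 701 CPM in B cells, so that in CCL4 it was not above the level in B cells. B cell genes summed to 141, 463 and 319 CPM in CON, HFD and CCL4 members, led by Igkc in each. Their part in the comparisons was not tested.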
